A study of Mus musculus with 2 samples.

Results

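Glycolysis, the splitting of glucose into pyruvate in the cytosol, and the exchange of pyruvate with lactate were followed here through 10 enzyme genes: Hk1, Aldoa, Aldoc, Gapdh, Pgk1, Eno1, Eno2, Pkm, Ldha and Ldhb. The members were all transcript models that carried one of these gene names in the deposited tables, which came to 255 of 132801 models in replicate 1 and 307 of 133303 models in replicate 2, or 10 of the 18907 annotated genes with a read. They were read in 2 long-read RNA-seq libraries, biological replicates 1 and 2 of a single group: left cerebral cortex, B6NCrl mice, adult, 6 months old, total RNA, with no treatment or mutation named. The labels tie both replicates to one donor record and contradict each other on sex (male, and not collected), and do not say that separate animals were used. All p-values below therefore measure the difference between 2 libraries, which may be technical, against counting noise. Replicate 1 held 1306424 reads and replicate 2 held 1304133 reads, and a count of 0 allowed up to 3 reads, or 2.30 counts per 1000000 reads (CPM), in each of them. Intervals are 95% Clopper-Pearson intervals and, like this limit, cover counting error only.

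Hexokinase (Hk1) traps glucose in the cell, aldolases (Aldoa, Aldoc) split the hexose, Gapdh and Pgk1 oxidise the triose and make the first ATP, enolases (Eno1, Eno2) form phosphoenolpyruvate, pyruvate kinase (Pkm) makes pyruvate and the second ATP, and lactate dehydrogenases (Ldha, Ldhb) interconvert pyruvate and lactate. Several steps have paralogs with a cell type of their own in brain: Aldoc is typical of astrocytes, Eno2 of neurons and Eno1 of most other cells. Pkm carries a pair of mutually exclusive exons, M1 and M2, which give enzymes of different regulation. M1 is the adult form of neurons and muscle, and M2 is the form of embryonic and dividing cells and of glia. In bulk tissue, a change in the number of cells of a type and a change in RNA per cell cannot be told apart. Markers of cortical cell types were present in both libraries: the 3 excitatory neuron markers summed to 932 and 709 CPM in replicates 1 and 2, the 5 astrocyte markers to 1077 and 1287 CPM and the 4 oligodendrocyte markers to 4311 and 3973 CPM. Of 4 skeletal muscle markers, Ckm, Myh4 and Tnnt3 had no read.

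The M1 and M2 exons lay on chromosome 9 of mouse genome build mm10, 372 bases apart, each 167 bases long and coding. They are shown because the reads of Pkm were told apart by them. M1 is the internal exon that the annotated transcript Pkm-202 holds and Pkm-201 lacks, chr9:59675029-59675195 on the plus strand, and M2 the reverse, chr9:59675568-59675734. Both were read from the GENCODE M21 transcript sequences, and capitals mark the bases that differ between them.
Pkm M1 exon: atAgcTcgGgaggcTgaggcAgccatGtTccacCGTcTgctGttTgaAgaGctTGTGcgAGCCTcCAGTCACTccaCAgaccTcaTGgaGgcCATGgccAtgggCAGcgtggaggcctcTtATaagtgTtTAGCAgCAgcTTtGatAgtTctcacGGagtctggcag
Pkm M2 exon: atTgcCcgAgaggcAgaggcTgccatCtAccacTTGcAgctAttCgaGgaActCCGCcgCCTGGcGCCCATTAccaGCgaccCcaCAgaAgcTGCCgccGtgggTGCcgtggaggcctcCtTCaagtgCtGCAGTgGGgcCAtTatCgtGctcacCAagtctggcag
The exons differed at 64 of 167 positions, an identity of 61.7%. The longest run of shared bases was 12, so a long read across either exon identified it.

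M1 was the main exon of cortical Pkm. In replicate 1, 1482 of 1717 informative Pkm reads held M1, 86.3% (84.6 to 87.9%), and in replicate 2, 1278 of 1435 did, 89.1% (87.3 to 90.6%). The mean was 87.7% ± 1.94 (SD, n = 2 libraries); M2 was in 235 reads of replicate 1 and 157 reads of replicate 2. The difference, replicate 1 minus replicate 2, was -2.75 percentage points (Fisher's exact test, two-sided, p = 0.0227), which did not pass after adjustment over all alternative exons tested (adjusted p = 1). Mutual exclusion was nearly complete: 1 read in replicate 1 and 0 reads in replicate 2 held both exons, and 1 read in replicate 1 and 4 reads in replicate 2 skipped both. Among reads that reached the first intron of Pkm, the M1 share was 86.3% in replicate 1 and 88.4% in replicate 2, and among reads that lacked it, 86.9% and 91.7%. Among reads on models outside the annotation it was 82.8% (53 of 64 reads, 71.3 to 91.1%) and 87.9% (51 of 58 reads, 76.7 to 95.01%). The annotated transcripts gave the same order: Pkm-202, with M1, held 86.4% and 88.5% of the reads on annotated transcripts, and Pkm-201, with M2, held 13.6% and 11.5%.

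Part of the Pkm reads of replicate 1 had been deposited under the neighbouring gene Parp6, a poly-ADP-ribosyltransferase gene upstream on the same strand. There, 9 models named Parp6 held introns of Pkm, with 87 reads. Of these, 80 were on incomplete models (intron chains that cover part of an annotated transcript). Only 1 was on a model that began well upstream of Pkm-202, and overlap with Parp6 exons was not checked. In replicate 2 no such model had a read. All 87 reads held M1. With them added, the M1 share was 87.0% in replicate 1 against 89.1% in replicate 2 (Fisher's exact test, p = 0.0736), so the raw difference between the libraries was smaller. This addition was chosen after the data had been seen.

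A second choice of splice site in Pkm was shared by both exon forms. The exon that ends at 59671725 in Pkm-202 ended 4 bases later, at 59671729, in 61 of 1669 reads of replicate 1 (3.65%) and in 57 of 1321 reads of replicate 2 (4.31%). Among M1 reads the later end made up 3.41% and 4.20%, and among M2 reads 4.82% and 4.64%. The M2 values rest on 11 and 7 reads with the later end, and their intervals, 2.43 to 8.47% and 1.88 to 9.32%, contain the M1 values. A shift of 4 bases is not a multiple of a codon.

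**Figure D1:**
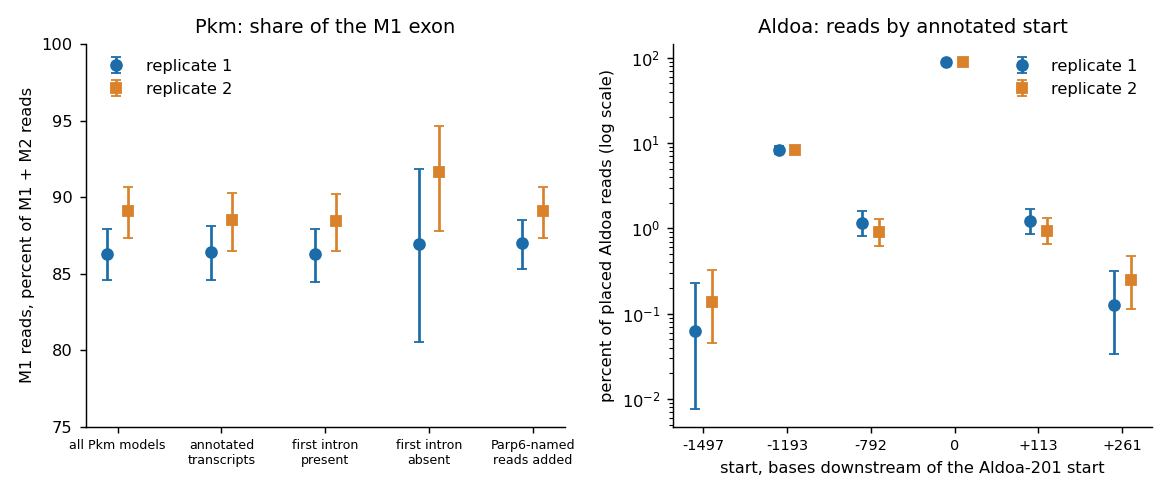
Left, percent of Pkm reads with the M1 exon among M1 and M2 reads, for all models and for subsets, in replicate 1 (circles) and replicate 2 (squares), with 95% Clopper-Pearson bars and an axis that starts at 75%. Right, percent of placed Aldoa reads by annotated start on a log axis, with the same symbols and bars, ordered along the direction of transcription. M1 lies between 86.3% and 91.7% in the sets plotted, and the Aldoa start at 0 holds 89.1% and 89.5% of the reads.

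Aldoa (ENSMUSG00000030695.16, chr7:126795234-126800751, minus strand) was read mostly on models of a single annotated start. A known model carries the start of the annotation, so its reads were placed by their intron chain and not by a measured start. The placed reads also include reads on models that are not known. Whether those reads begin at a true start or are shortened was not tested. The annotated starts of the protein-coding Aldoa transcripts fall into 6 groups when starts within 100 bases are merged. The start of Aldoa-201 held 2849 of 3197 placed reads in replicate 1, 89.1% (88.0 to 90.2%), and 3235 of 3616 in replicate 2, 89.5% (88.4 to 90.4%). The start of Aldoa-203, 1193 bases upstream, held 266 reads (8.32%) and 300 reads (8.30%). A start between them, that of Aldoa-210 and Aldoa-204, held 37 reads (1.16%) and 33 reads (0.913%), of which 36 and 33 had an intron chain outside the annotation that joined this first exon to the second exon of Aldoa-201. The start of Aldoa-202 and Aldoa-211, downstream of that of Aldoa-201, held 39 reads (1.22%) and 34 reads (0.940%). Of these, only 5 and 5 were on annotated Aldoa-202. The 153-base exon of Aldoa-202, Aldoa-204 and Aldoa-211 was in 6 reads of replicate 1 and 8 reads of replicate 2. Most reads placed at this start were therefore not reads of these transcripts. The most upstream start, of Aldoa-207, had 2 and 5 reads, and the most downstream, of Aldoa-212, had 4 and 9. No start differed between the libraries (Fisher's exact test over 6 starts, adjusted p between 0.674 and 1). Reads without a start in any group, 460 and 487, were left out. Of the skeletal muscle markers, where Aldoa is also high, Acta1 had 45 and 57 reads and the other 3 had none.

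The sequences before the main pair of Aldoa starts are shown because they differ in base composition. Each window runs from 250 bases before a start to 50 bases after it, from RefSeq on build GRCm38.p6, and capitals mark matches on either strand to 4 motifs. The core of the hypoxia response element was searched as ACGTG. The TATA box was searched as TATAAA. The E-box was searched as CANNTG. The GC box was searched as GGGCGG.
Aldoa-203 start, chr7:126800398-126800697, minus strand: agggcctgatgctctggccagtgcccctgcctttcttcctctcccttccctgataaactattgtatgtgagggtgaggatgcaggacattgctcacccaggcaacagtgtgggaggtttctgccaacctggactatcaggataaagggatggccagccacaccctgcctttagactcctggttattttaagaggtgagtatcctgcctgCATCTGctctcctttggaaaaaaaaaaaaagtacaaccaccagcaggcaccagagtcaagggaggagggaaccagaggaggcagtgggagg
Aldoa-201 start, chr7:126799205-126799504, minus strand: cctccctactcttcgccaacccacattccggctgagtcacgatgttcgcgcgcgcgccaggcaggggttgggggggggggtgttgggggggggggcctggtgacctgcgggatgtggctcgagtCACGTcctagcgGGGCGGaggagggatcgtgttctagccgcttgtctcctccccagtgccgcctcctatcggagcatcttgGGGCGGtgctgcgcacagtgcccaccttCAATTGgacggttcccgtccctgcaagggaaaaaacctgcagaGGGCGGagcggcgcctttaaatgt
The window of Aldoa-201 held 24 CG pairs, 3 GC boxes, 1 E-box and 1 hypoxia core. The window of Aldoa-203 held no CG pair and, of these motifs, 1 E-box. All 10 members matched RefSeq, with 18 windows, some of which overlap. The hypoxia core was in 8 of the 18 member windows (44.4%), beside 19.6% of all 32851 windows. It covered 7 of the 10 genes, because overlapping windows of Aldoa each held a match. The Ldha window at its more upstream start held 5 matches. The GC box was in 44.4% of member windows and 35.7% of all, the E-box in 66.7% and 72.3%, and the TATA box in 5.56% and 13.6%. The median window held 18.5 CG pairs in the members and 7 in all genes. The hypoxia core and the GC box each contain a CG pair, and the shares were not matched for CG pairs. An E-box can contain a hypoxia core, so the counts overlap, and a match is a description of the letters only.

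The entry enzyme had the fewest reads after Gapdh and the widest gap between the libraries. Hk1 (ENSMUSG00000037012.18, chr10:62268855-62379908, minus strand) had 158 reads in replicate 1 and 45 reads in replicate 2, or 121 and 34.5 CPM (mean 77.7 ± 61.1 CPM, SD, n = 2). Replicate 1 was 3.48-fold higher (log2 ratio 1.80, exact binomial test with Benjamini-Hochberg adjustment over 11838 genes, adjusted p = 4.03e-14). Hk1 was the only member called between the libraries, where a call needed an adjusted p under 0.05 and a 2-fold ratio. Of all genes tested, 7.05% were called, 5.44% as higher in replicate 1 and 1.61% as higher in replicate 2, so 1 of 10 members is near that background. The annotated transcript Hk1-202, with 18 exons, held 61 and 5 reads. Unspliced reads, meaning here reads on models of a single exon, made up 28 of 158 and 18 of 45 reads. Of them, 27 and 18 were on a model at the 3' end. Without unspliced reads the counts were 130 and 27. Whether such reads, here and in other members, are unprocessed RNA or pieces of spliced RNA was not tested. The excitatory neuron markers Slc17a7 and Nrgn were also called, with 130 and 698 reads in replicate 1 against 36 and 197 in replicate 2, while Camk2a had 390 reads in replicate 1 against 691 in replicate 2. The part of neuronal RNA in the Hk1 difference was not tested. The leading Hk1 transcript had a GC content of 56.4% and reached 74% in its richest 100 bases. The median GC content of leading transcripts was 55.8% over genes called higher in replicate 1 and 50.4% over all tested genes, and that of the richest 100 bases was 83% and 73%. Hk1 thus lay near the called genes on the first measure and near all genes on the second. The first measure did not set it apart among the members. Aldoa (57.3%), Eno1 (57.4%), Gapdh (56.6%) and Pkm (56.3%) were similar and were not called. Aldoc, Pgk1, Eno2, Ldha and Ldhb were lower, at 49.7 to 54.8%. The part of GC content in the Hk1 difference was not tested.

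Aldolases held the most reads under their own names. Aldoa had 3657 and 4103 reads in replicates 1 and 2, or 2973 ± 245 CPM (SD, n = 2), and ranked 20 of all genes. Aldoc (ENSMUSG00000017390.15, chr11:78322968-78327781, plus strand) had 2265 and 2230 reads, or 1722 ± 16.8 CPM. Aldoa held 61.8% of the reads of the pair in replicate 1 (60.5 to 63.0%) and 64.8% in replicate 2 (63.6 to 66.0%), a difference beyond counting noise (Fisher's exact test over 3 enzyme pairs, adjusted p = 0.00156). A long read counts a molecule once whatever its length; divided by the length of the leading transcript, 1511 bases for Aldoa-201 and 2786 for Aldoc-201, the mean share of Aldoa was 76.0%. Aldoc-201 held 86.7% and 88.5% of the annotated reads of Aldoc, and Aldoc-202 held 13.3% and 11.5%. The intron chain of Aldoc-202 lies wholly within that of Aldoc-201, so a read of Aldoc-201 that stopped short of the first exon has the same introns.

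Gapdh (ENSMUSG00000057666.18, chr6:125161715-125166467, minus strand), the enzyme that oxidises the triose and forms NADH, had few reads under its own name. It had 25 reads in replicate 1 and 34 reads in replicate 2, or 22.6 ± 4.90 CPM. Of these, 8 and 6 were on Gapdh-203 and 1 in each library was on Gapdh-206, an annotated retained-intron transcript (11.1% and 14.3% of annotated reads). Sequence comparison found 48 other annotated genes with at least 97% identity to its leading transcript over at least 200 bases, 19 of which had reads. They held 7174 reads in replicate 1 and 4886 reads in replicate 2. The processed pseudogenes Gm12033 and Gm5559 led, with 2706 and 2343 reads in replicate 1 against 1803 and 1612 in replicate 2. Gm13394 followed with 918 and 585 reads, Gm12671 with 888 and 599, and Gm7336 with 174 and 135. Gapdh itself then made up 0.347% of the summed reads in replicate 1 and 0.691% in replicate 2. Little sequence separates them: Gm12033 differed from Gapdh-203 at 1 of 1002 aligned bases, and Gm12671 at 0 of 1002. The stretch around the single Gm12033 difference is shown, in capitals, from the spliced Gapdh-203 transcript (chr6:125162694-125162888 with an intron inside) and from Gm12033 (chr11:20335480-20335540), both on the minus strand.
Gapdh-203: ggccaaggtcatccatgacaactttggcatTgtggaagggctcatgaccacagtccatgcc
Gm12033: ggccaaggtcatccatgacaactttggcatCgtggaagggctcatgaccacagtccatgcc
The Gapdh stretch crosses an exon junction that the unspliced copy does not have. Of the reads kept under Gapdh, 9 of 25 in replicate 1 and 14 of 34 in replicate 2 carried bases of its first intron, chr6:125165312-125165551. Which locus the reads came from was not tested. Gapdh and its near copies summed to 5510 CPM in replicate 1 and 3773 CPM in replicate 2, 4642 ± 1229 CPM on average, above every other member in each library. The log2 ratio of this sum was 0.55 (exact binomial test, adjusted p = 3.87e-92), below the 2-fold needed for a call, whereas Gapdh alone had a log2 ratio of -0.44 (adjusted p = 0.572). This sum was chosen after the data had been seen.

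**Figure D2:**
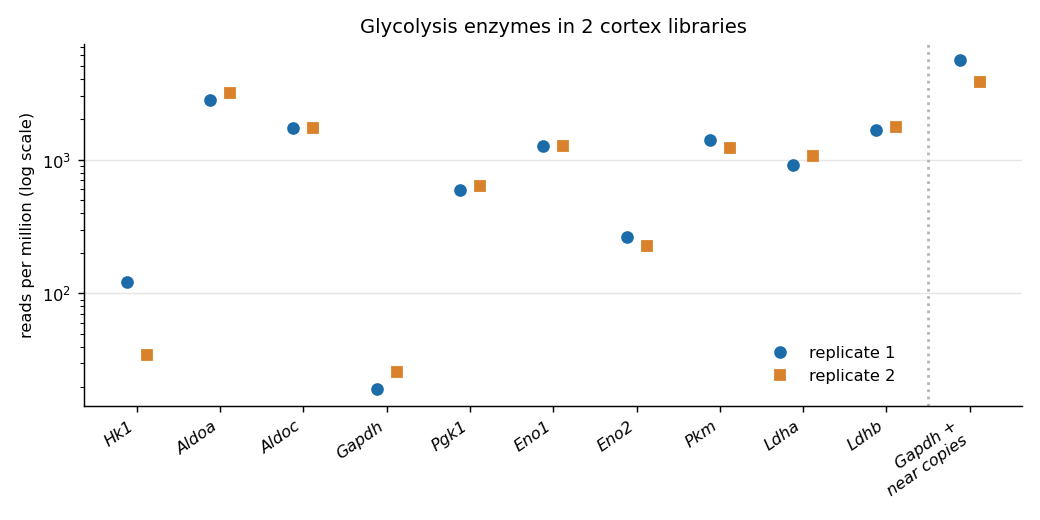
CPM on a log axis for each member in pathway order, in replicate 1 (circles, left) and replicate 2 (squares, right); the last column adds to Gapdh the reads of its 48 near copies. Gapdh is lowest under its own name, with 25 and 34 reads, and highest with the copies.

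Pgk1 (ENSMUSG00000062070.12, chrX:106187100-106203699, plus strand), which makes ATP after Gapdh, had 774 and 833 reads in replicates 1 and 2, or 616 ± 32.7 CPM. All of its annotated reads, 658 and 691, were on Pgk1-201. Near copies of Pgk1 added 10 and 5 reads. Near copies of Eno1 added 26 and 36, those of Ldhb added 2 and 2, and none was found for the other 6 members. For these 9 genes the gene itself held at least 97.9% of the summed reads of gene and near copies in each library.

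Of the enolases, Eno1 was read most evenly of all members. Eno1 (ENSMUSG00000063524.13, chr4:150236721-150248879, plus strand) had 1653 reads in replicate 1 and 1648 reads in replicate 2, or 1264 ± 1.14 CPM. Eno2, the neuronal enolase (ENSMUSG00000004267.16, chr6:124760053-124769673, minus strand), had 346 and 295 reads, or 246 ± 27.3 CPM. Eno1 held 82.7% and 84.8% of the reads of the pair (adjusted p = 0.0767), and 87.7% on average per length. Among annotated transcripts Eno1-202 held 95.4% and 95.5%. Eno2-201 held 73.6% and 67.5%, beside 18.5% and 19.8% for Eno2-209 and 3.37% and 10.3% for Eno2-210, both of a retained-intron type whose introns lie within those of Eno2-201. Many Eno2 reads were unspliced in the sense given above. In replicate 1, 96 of 346, and in replicate 2, 117 of 295, were on single-exon genomic models at the 3' end of the gene. Without them Eno2 had 250 and 178 reads. A first exon that ended 188 bases later than in Eno2-201 joined the other introns of that transcript in 27 and 18 reads. The exons at chr6:124766105-124766327 and chr6:124766531-124766664 were each skipped in 10 reads of replicate 1 and 3 reads of replicate 2.

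Pkm (ENSMUSG00000032294.17, chr9:59656368-59679375, plus strand), whose splicing is given above, had 1825 and 1585 reads in replicates 1 and 2, or 1306 ± 128 CPM, with a log2 ratio of 0.20 (exact binomial test, adjusted p = 8.36e-04). With the reads held under Parp6 it had 1912 and 1585, and the log2 ratio was 0.27.

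Lactate dehydrogenase B, the subunit that favours the use of lactate, was read more than A. Ldhb (ENSMUSG00000030246.11, chr6:142490249-142507957, minus strand) had 2171 and 2297 reads in replicates 1 and 2, or 1712 ± 70.4 CPM, and Ldha (ENSMUSG00000063229.15, chr7:46841475-46855627, plus strand) had 1190 and 1396 reads, or 991 ± 113 CPM. Ldha thus held 35.4% of the pair in replicate 1 (33.8 to 37.0%) and 37.8% in replicate 2 (36.2 to 39.4%), with adjusted p = 0.0566, and 32.2% on average per length. Nearly all annotated Ldha reads were on Ldha-202 (1040 of 1040 and 1207 of 1209), and all annotated Ldhb reads were on Ldhb-201 (1939 and 2015). The exon of Ldhb at chr6:142492493-142492616, 124 bases long, was skipped in 35 reads of replicate 1 and 40 reads of replicate 2, and kept in 98.4% and 98.2% of informative reads. Of the skipping reads, 33 and 38 shared a single new intron chain.

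By CPM the order of the members was Aldoa, Aldoc, Ldhb, Pkm, Eno1, Ldha, Pgk1, Eno2, Hk1 and Gapdh. Aldoc and Ldhb differed by less than the spread of Ldhb between libraries, and so did Pkm and Eno1 by less than that of Pkm. Per kilobase of the leading transcript, 4 members changed place: Ldhb was second at 1313 CPM per kilobase, and Pkm (640), Ldha (624), Eno1 (624) and Aldoc (618) were close together. Besides Hk1, 3 members had an adjusted p under 0.05 with ratios under 2-fold, namely Aldoa (log2 ratio -0.17), Pkm and Ldha (log2 ratio -0.23). With Hk1 this made 4 of 10, beside 12.8% of all genes tested. That background was not matched for read count. A test against counting noise passes more readily at high counts, and most members are among the most read genes. The median log2 ratio was -0.04 over the members and 0.00 over all genes.

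Most reads of the well-read members were on annotated transcripts. The share of such reads had a median of 83.9% over the 10 members in replicate 1 and 81.9% in replicate 2, beside 68.0% and 60.5% over the 6644 genes with at least 20 reads in each library. Pkm stood at 82.5% in replicate 1 and 70.1% in replicate 2 (Fisher's exact test, adjusted p = 2.74e-15), Aldoc at 90.4% and 84.6% (adjusted p = 1.48e-07) and Hk1 at 38.6% and 11.1% (adjusted p = 0.00827). These 3 of 10 members passed, where 8.76% of all genes did, a background again not matched for read count. In each of the 3 the share was higher in replicate 1. For Pkm the lower share in replicate 2 went with incomplete chains that lacked the 5' end: the first intron of Pkm-202 was in 85.9% of Pkm reads in replicate 1 and 73.7% in replicate 2, and the last intron in 96.2% and 93.7%.

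**Figure D3:**
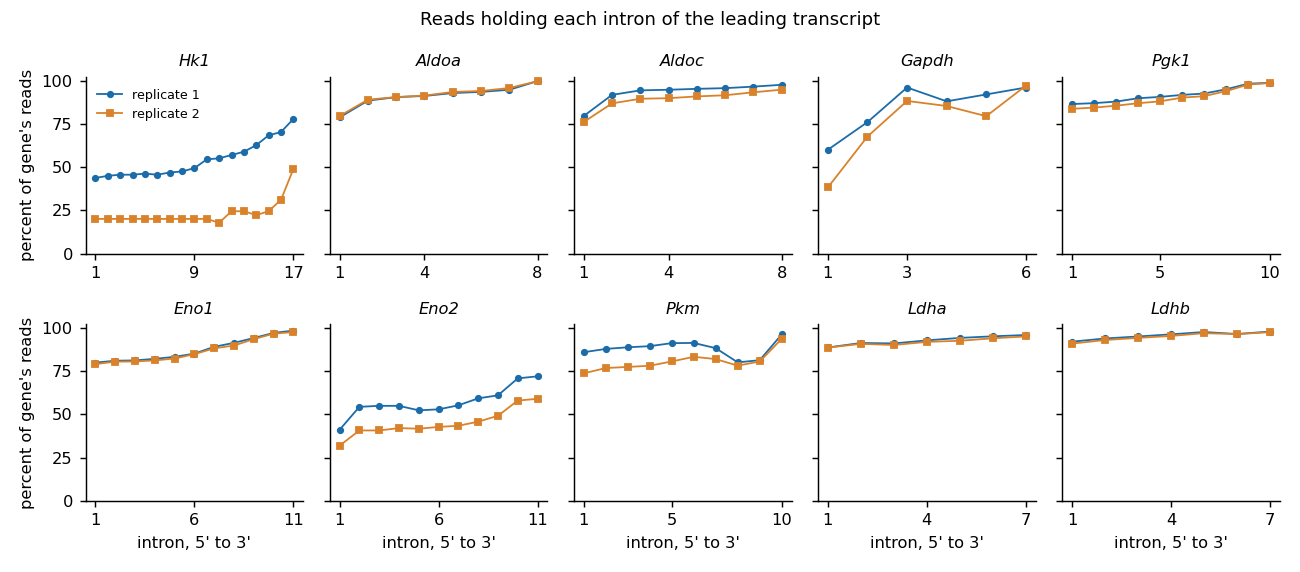
Percent of each member's reads that held each intron of its leading transcript, numbered from the 5' end, in replicate 1 (circles) and replicate 2 (squares). Ldhb stays above 90% along its length in both libraries. In every member the first intron is in fewer reads than the last. In replicate 2 the first is in 20.0% of reads for Hk1, 31.9% for Eno2 and 38.2% for Gapdh. Unspliced reads count in the total. The dip at Pkm introns 8 and 9 is where reads take M2.

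With the reads under Parp6 added, the first intron was in 82.0% of Pkm reads in replicate 1 and the known share was 78.7%, against 73.7% and 70.1% in replicate 2. Aldoc had 44 unspliced reads in replicate 1, classed as incomplete chains, and 106 in replicate 2, classed as genomic. With genomic models left out, a planned setting, the Aldoc share was 90.4% in replicate 1 and 88.8% in replicate 2 (Fisher's exact test, p = 0.0829). For Aldoc that setting takes reads out of replicate 2 alone. Without unspliced reads in either library the share was 92.2% and 88.8% (Fisher's exact test, p = 1.22e-04). The gap was smaller than with all reads under both settings. This setting was added after the data had been seen.

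**Figure D4:**
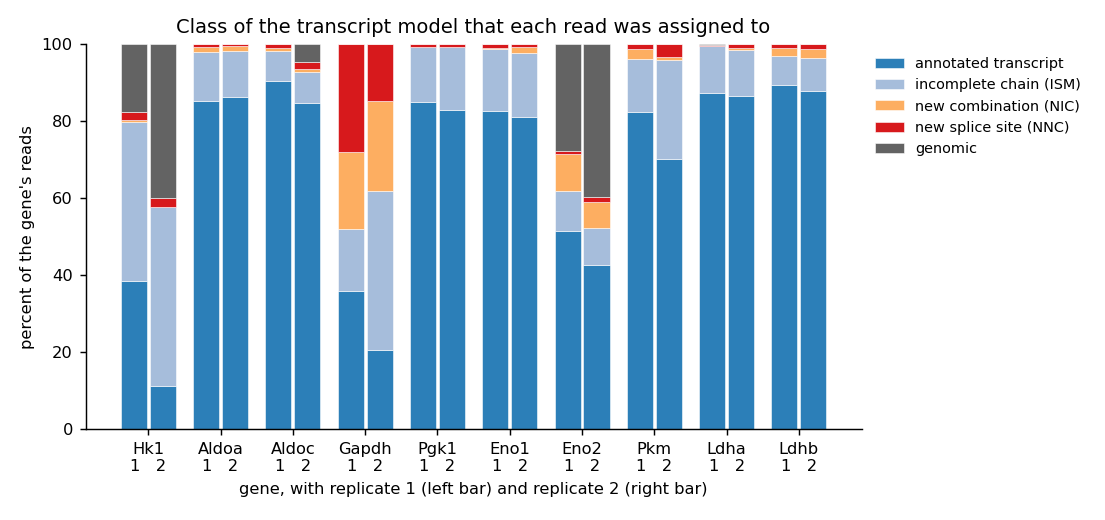
Percent of each member's reads by class of the assigned model, with replicate 1 as the left bar and replicate 2 as the right bar of each pair. Annotated transcripts take 70.1% to 90.4% of reads in Aldoa, Aldoc, Pgk1, Eno1, Pkm, Ldha and Ldhb, while Hk1 and Eno2 hold large genomic shares.

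Few other exons were alternative. In 8 of the members, 40 annotated internal exons had both an including and a skipping read. Only M1 and M2 of Pkm lay between 5% and 95% in both libraries. None of the 40 differed between the libraries, beside 0.176% of 9637 exons of all genes, and no leading transcript share differed among the 8 members with enough annotated reads for the test (all but Hk1 and Gapdh), beside 0.733% of 3956 genes. Models with intron chains outside the annotation took 336 and 388 member reads. There were 222 such chains, of which 44 were found in both libraries and 158 had a single read in all. The shared ones held 259 of 336 and 261 of 388 reads. The most read were the later exon end of Pkm with M1 (41 and 34 reads), the Ldhb exon skip, the intermediate Aldoa start and the Eno2 first exon. Ldhb had a first exon that ended 313 bases later (8 and 12 reads) and an exon 36 bases shorter (10 and 9 reads). Eno1 had an exon that ended 4 bases later (8 and 11 reads). Aldoc had an exon that began 328 bases earlier (4 and 10 reads) or 48 bases later (4 and 8 reads), and Pkm the later exon end with M2 (10 and 4 reads).

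Of 21 further glycolysis genes, 17 had a read, and Tpi1, the triose isomerase, led with 1970 reads in replicate 1 and 1933 in replicate 2. Pgam1, a phosphoglycerate mutase, had 1348 and 1128 reads. Gpi1, the glucose phosphate isomerase, had 957 and 770. Pfkp, a phosphofructokinase, had 205 and 275. These are the most read of the list. Of the 12 tested, 5 had an adjusted p under 0.05, beside 12.8% of all genes, a share not matched for read count. Pgk2 and Ldhc, forms known from testis, and Pklr, known from liver, were among those with no read. Only Ldhd, a D-lactate dehydrogenase, was called, with 8 reads in replicate 1 and 37 in replicate 2 (adjusted p = 1.75e-04). That is 1 of the 12 tested, beside 7.05% of all genes tested. Among 6 transport genes, Bsg, the partner of lactate carriers, had 1536 and 1343 reads. The glucose carrier Slc2a3 had 49 and 47, its relative Slc2a1 had 34 and 35, and the lactate carrier Slc16a1 had 17 and 18. None of the 6 was called, beside the same 7.05%. Among 12 genes that control the pathway, the pyruvate dehydrogenase subunits Pdha1 and Pdhb had 303 and 168 reads in replicate 1 against 327 and 148 in replicate 2. Pfkfb2, which sets the level of a phosphofructokinase activator, had 64 and 98 reads. Pdk2, a pyruvate dehydrogenase kinase, was called, with 86 reads in replicate 1 and 30 in replicate 2 (adjusted p = 5.07e-06). It was the only call among the 9 tested of this list, again beside 7.05% of all genes tested.

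Factors linked to Pkm splicing showed no call among the 7 tested of 8. With 7.05% of all tested genes called, no call in a list of this size is near that background. Hnrnpa1, which with Hnrnpa2b1 represses M1, had 365 reads in replicate 1 and 378 in replicate 2, and Hnrnpa2b1 had 162 and 204. Srsf3, which favours M2, had 349 and 350 reads. Ptbp1, which also represses M1 in dividing cells, had 14 reads in replicate 1 and 11 reads in replicate 2. Its neuronal paralog Ptbp2 had 66 and 78 reads.

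**Figure D5:**
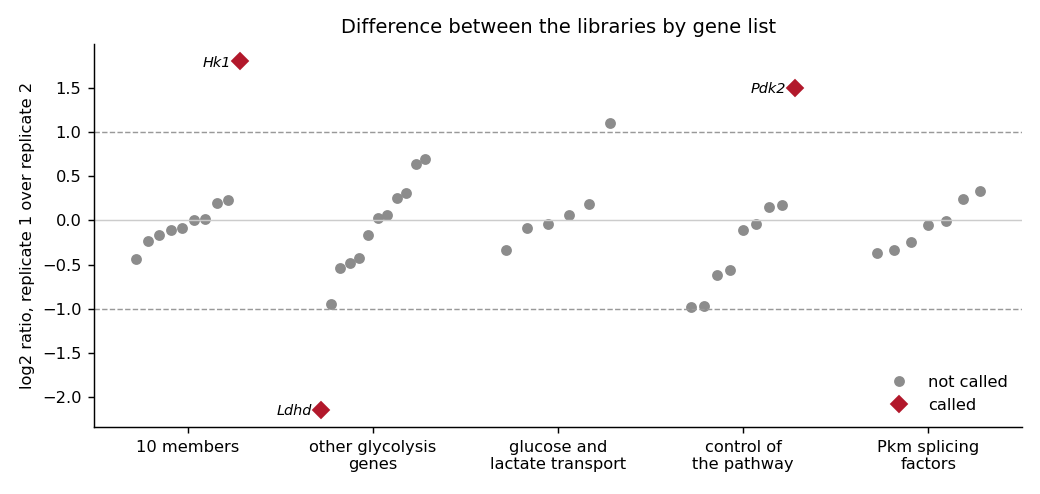
Log2 ratio of replicate 1 over replicate 2 for each tested gene of 5 lists, with dashed lines at a 2-fold ratio; diamonds are called genes. Hk1 and Pdk2 are higher in replicate 1 and Ldhd is lower; the other genes are not called.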

How the data were processed

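The deposited tables hold counts, whole reads per transcript model with no normalization, per the file headers; every listed model has at least 1 read. Other deposited values are the number of exons, the length and the positions of each model on mm10 with GENCODE M21, with models added from each library's reads and classed by TALON, per the file headers. Classes are known, incomplete chain (ISM), annotated sites in a new combination (NIC), new site (NNC) and genomic. For aligner, instrument and TALON version: not given in the sources used here.

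Counts were summed per gene and scaled to CPM (library total 1000000). An exact binomial test, two-sided, set each gene's split of reads beside that of the whole libraries (scipy 1.17.1; 10 reads or more over both, p adjusted by Benjamini and Hochberg). Calls needed an adjusted p under 0.05 and a 2-fold ratio, log2 ratios being taken after adding 0.5 counts. Shares were compared by Fisher's exact test where each library had 20 reads of the gene, or 20 that decide the exon; a leading share was called only from 10 percentage points. Near copies were found with blastn 2.17.0+ (97% identity, 200 bases). Annotated exons in the files matched GENCODE M21 for all 20646 and 19532 known models with reads. The binomial test was tested on simulated data. edgeR 4.0.16 and DESeq2 1.42.0 gave scaling factors only. A new chain was matched between libraries by every intron. The end of a known model is the annotation's and not the read's.

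Named are all members, the 4 genes of highest CPM and every called gene of 4 further lists, annotated transcripts with at least 5% of a gene's annotated reads, and the 10 most read new chains in both libraries. Ptbp1, Parp6, the near copies and other transcripts were named after their values were seen. Members and lists were chosen with earlier results of these data known.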

Additional observations from a re-analysis of the deposited data

How the results depend on the processing

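No paired analysis was possible because 1 group alone was sequenced. Hk1 was the only member called under TMM factors, median-of-ratios factors, no count filter, known transcripts alone and near copies added. The M1 share of Pkm, 87.7% ± 1.94, was 87.5% on known transcripts and 87.6% when any overlap of an exon counted. With the reads under Parp6 added, an alternative chosen after seeing the data, it was 88.0%. These values lay within the spread. The M1 shares without 1 replicate, 86.3 and 89.1%, are those of the single libraries and could not leave it. The summed level of the members, 10929 CPM, was 12242 CPM when scaled to annotated nuclear genes, 9133 CPM on known transcripts and 15579 CPM with near copies added, an alternative chosen after seeing the data. Its values without 1 replicate were 10765 and 11092 CPM. The log2 ratio of Gapdh, -0.44, reversed to 0.34 on known transcripts and to 0.55 with near copies, and that of Eno1, near 0, to -0.0068 with near copies. The median leading share, 93.4%, was 77.4% over all models. On known transcripts alone, the Aldoa-201 start held 91.4% and the Aldoa-203 start 8.42%, the Ldha share of 36.2% and the Eno1 share of 89.9% passed the test (adjusted p = 0.0345 and 0.0138), and 5 in place of 40 exons had including and skipping reads. Per kilobase, the shares of Aldoa, Ldha and Eno1 were 76.0, 32.2 and 87.7%. The causes of these changes were not tested. Of all genes, 835 were called, 862 under TMM, 800 under median-of-ratios factors, 758 without the filter and 888 on known transcripts. With 2 libraries, no replicate outlier could be tested, and the shares of Hk1 and Gapdh rest on few reads. Of the 257 values under alternative settings, 163 of single genes or transcripts and 43 of the main results kept their direction and stayed within the spread or on their side of the threshold. Among them are values that could not move. With 2 libraries, the level or share of a gene in either library always lies within the SD of both. Adding near copies leaves a gene without copies as it was. The tally is therefore no measure of robustness. A further 36 and 10 values moved beyond the spread.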

Other observations

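Reads on the strand opposite to the members were rare, at most 3 in either library, except at Gapdh. There, 11 reads in replicate 1 and 21 reads in replicate 2 overlapped Gapdh exons from the other strand, of which 10 and 21 belonged to the annotated gene Iffo1, beside 25 and 34 reads named Gapdh. At Hk1 the opposite strand held 1 and 3 reads. Eno1 held a pair of annotated exons of 59 bases that can replace each other: the exon at chr4:150241767-150241825 was in 0 reads of replicate 1 and 4 reads of replicate 2, and the exon at chr4:150242122-150242180 in 1355 and 1337.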
